A study of Homo sapiens with 6 samples.

Results

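Glycolysis and the hypoxia response were described here through 36 genes, each found as a row of a deposited FPKM table of 24108 rows by its listed symbol. PKM was found under its older symbol PKM2, and PFKFB4 in a row that also names UCN2. By role, the genes were 3 glucose and lactate transporters, 17 glycolytic enzymes, 3 regulators of glycolytic flux, 3 genes of the hypoxia-inducible factor (HIF) pathway and 10 HIF targets outside glycolysis. A row was tested where its mean over the 6 samples was at least 1 FPKM, which 35 of the 36 genes and 11777 rows in all reached. The gene below that level was CA9.

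Glycolysis splits glucose into pyruvate in the cytosol. Hexokinase traps glucose as its phosphate, phosphofructokinase commits the sugar to breakdown, and lactate dehydrogenase reduces pyruvate to lactate, which the cell exports. HIF is a transcription factor made of an alpha subunit, such as HIF1A, and the partner ARNT. When oxygen is present, the prolyl hydroxylases EGLN1, EGLN2 and EGLN3 mark the alpha subunit for destruction. When oxygen is low, HIF binds DNA at a short motif with the core ACGTG or GCGTG and raises many genes, including most steps of glycolysis. Cancer cells commonly run glycolysis at a high rate even in the presence of oxygen.

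RNA-seq was performed in MDA-MB-231, a widely used human line of triple-negative breast cancer that the labels class as basal. A control group of 3 samples carried an LKO short hairpin against luciferase (shCtr), and 3 samples carried a hairpin against ZNF148 (shZNF148), a zinc finger transcription factor. In both groups lentivirus was applied for 48 h and cells were selected for 24 h in 0.5 µg/ml puromycin. The comparison asks how the transcriptome changes when ZNF148 is depleted. Nothing in the labels says that replicates were separate cultures, so p-values measure the spread between these samples. With 1 hairpin in each group, an effect of that hairpin and an effect of ZNF148 loss cannot be told apart. The 21-base target listed for the hairpin is printed because it defines the treated group. It lies in coding sequence, in exon 9 of 9 of ZNF148, at chr3:125232398-125232418 on the minus strand of GRCh38, and its capitals mark the bases that pair with bases 2 to 8 of the guide.

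shZNF148 target: cccttggtgaatgTAAATGAt

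ZNF148 itself was at 3.72, 4.36 and 4.30 FPKM in shCtr and at 0.914, 0.282 and 0.834 FPKM in shZNF148 (log2 fold change -1.63, SE 0.18, adjusted p = 0.00990). Summed FPKM ran from 469594 to 507312 per sample and was lower in every shZNF148 sample than in any shCtr sample. Relative sequencing depth, read from the steps between low values, ran from 0.806 to 1.13 of that of shCtr replicate 1. Of 6 genes typical of this line, all (VIM, CD44, AXL, CAV1, MSN and ANXA1) were above 170 FPKM in every sample. Among 8 luminal or epithelial markers, ESR1 was listed at 0 in every sample and PGR, FOXA1 and CDH1 stayed under 0.5 FPKM. GATA3, EPCAM and ERBB3 were between 2.06 and 11.1 FPKM, and KRT19, which shares its row with KRT17, was at 216 to 286 FPKM. CD44 and AXL fell (log2 fold changes -0.46 and -0.29, adjusted p = 0.0185 and 0.0364). None of the 4 luminal or epithelial markers that reached the filter passed, and any part of other cells in the results below was not tested. In bulk RNA, fewer cells of a type and less RNA per cell cannot be told apart.

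Most of the 35 tested genes did not pass, which does not show that they were unchanged. A gene is said to have risen or fallen only where its adjusted p was under 0.05 in limma on log2(FPKM + 1), with adjustment over all 11777 rows. Of the 35 tested genes 3 rose, against 5.46% of all tested rows, and 7 fell, against 8.13% of all tested rows. Those that rose were ALDOC, PFKFB3 and EGLN3. Those that fell were HK1, HK2, PFKM, PFKP, ENO2, LDHB and NDRG1. Only PFKM also changed by more than 1.5-fold. Thus 1 of 35 fell past that fold, against 3.66% of all rows, and 0 rose past it, against 1.83%. The 3 shZNF148 samples lay above all 3 shCtr samples for 10 of the 35 genes, against 20.0% of all rows. They lay below for another 10, against 21.0%. The median log2 fold change was -0.02 over the 35 genes and 0.01 over all tested rows.

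The split between directions depended on scaling. With each sample scaled to the same sum of FPKM, the members split into 7 higher and 5 lower, and all rows went from 643 higher and 957 lower to 1200 higher and 683 lower. Past 1.5-fold, all rows went from 216 higher and 431 lower to 390 higher and 355 lower. Single libraries mattered as well. Without shCtr replicate 1, and likewise without shCtr replicate 3, 0 of the 35 genes passed in limma, although 8 higher and 7 lower, and likewise 7 higher and 7 lower, had an unadjusted p under 0.05. Of all tested rows, 3 were higher and 26 lower without shCtr replicate 1, and 3 and 19 without shCtr replicate 3. Calls were thus lost over the whole table, and the loss is not particular to these genes. The share of all rows at that unadjusted p was not counted. shZNF148 replicate 2 was the highest of its group for 19 of the 35 genes and the lowest for 11. For shZNF148 replicate 1 these counts were 5 and 13, and for shZNF148 replicate 3 they were 11 and 11. The same counts over all rows were not made, and a link to the ZNF148 level was not tested. Over the 6 fits that left out 1 library, the call held in 4 for PFKM, in 3 for ENO2 and PFKFB3, in 2 for HK1, PFKP and LDHB, in 1 for HK2 and NDRG1 and in 0 for ALDOC and EGLN3. No gene of the 10 that passed changed its direction in any setting tried. Only rescaling could have changed it, since the groups of these genes did not overlap.

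**Figure D1:**
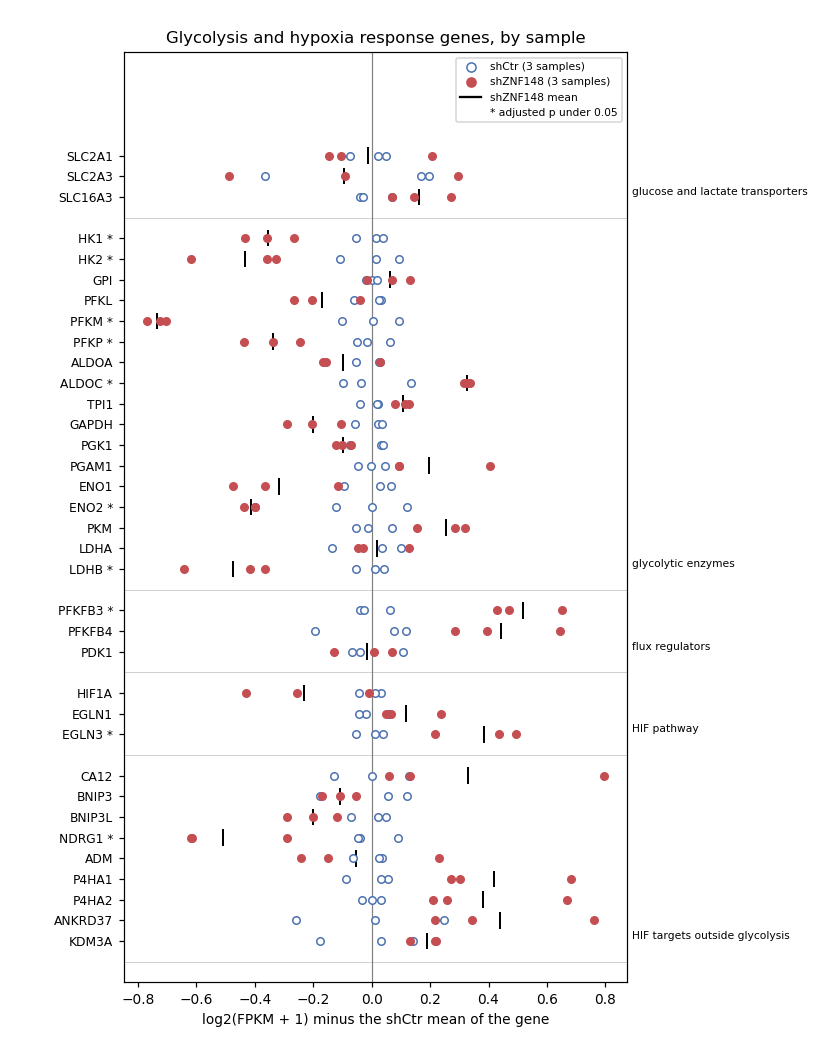
Each point is 1 sample's log2(FPKM + 1) minus the mean of the 3 shCtr samples for that gene, with open circles for shCtr, filled circles for shZNF148 and a bar at the shZNF148 mean. For 11 of the 17 enzymes the bar lies left of 0, with PFKM farthest left at -0.73, while PFKFB3 and EGLN3 lie to the right.

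None of the 3 transporter genes passed the test. SLC2A1, the main glucose importer of most cultured cells, was at 246, 226 and 242 FPKM in shCtr and at 221, 275 and 215 FPKM in shZNF148. The groups overlapped and the log2 fold change was -0.01 (SE 0.10, 95% interval -0.26 to 0.23, adjusted p = 0.937). SLC2A3, a high-affinity glucose importer, was far lower, at 8.26 to 15 FPKM in its main row, and also overlapped (log2 fold change -0.09, adjusted p = 0.804). A further row of SLC2A3 was at 6.94, 6.60 and 5.72 FPKM in shCtr and at 5.18, 4.69 and 4.03 FPKM in shZNF148. It was lower in every shZNF148 sample and did not pass (log2 fold change -0.40, adjusted p = 0.0620). SLC16A3, which exports lactate, was at 283 to 305 FPKM in shCtr and at 306 to 352 FPKM in shZNF148. All 3 shZNF148 samples were higher, but the difference did not pass (log2 fold change 0.16, adjusted p = 0.168). Relative to GAPDH, a scaling chosen after the values were seen, it passed (log2 fold change 0.36, adjusted p = 0.0189). Under that scaling 2525 of the 11777 rows were higher and the median log2 fold change of all rows was 0.18, so the pass is not particular to SLC16A3. In their main rows, none of the 3 transporters had an unadjusted p under 0.05.

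Hexokinase, the first step of glucose use, fell. Both hexokinase genes were lower in every shZNF148 sample than in any shCtr sample. HK1, the hexokinase present in most tissues (chr10:69269984-69401884, plus strand; GENCODE release 44 on GRCh38, as for all gene positions), was at 139, 132 and 141 FPKM in shCtr and at 107, 101 and 114 FPKM in shZNF148. Its mean went from 137 ± 4.64 to 107 ± 6.32 FPKM (SD, n = 3 in each group), a log2 fold change of -0.35 (SE 0.07, adjusted p = 0.0244). HK2, the inducible hexokinase and a textbook HIF target (chr2:74834127-74893359, plus strand), was at 19.1, 16.5 and 18.0 FPKM in shCtr and at 13.7, 11.3 and 14 FPKM in shZNF148. It fell by 0.43 on the log2 scale (SE 0.10, adjusted p = 0.0411), but its adjusted p was 0.0588 with no filter on low rows and 0.0650 under scaling to the same sum, and the call was lost in 5 of the 6 fits that left out 1 library, at an adjusted p of up to 0.147. The ratio of HK2 to HK1 within a sample was 0.130 ± 0.00666 in shCtr and 0.121 ± 0.00879 in shZNF148, with overlapping groups. Summed over the pair, hexokinase FPKM was 155 ± 5.73 in shCtr and 120 ± 7.69 in shZNF148.

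GPI, which turns glucose 6-phosphate into fructose 6-phosphate, showed no difference that passed. It was at 133 to 137 FPKM in shCtr and at 133 to 148 FPKM in shZNF148 (log2 fold change 0.06, 95% interval -0.08 to 0.21, adjusted p = 0.500). GPI and ENO1 each had a further row, at 4.81 to 27.4 FPKM and at 0 to 6.77 FPKM, that did not pass.

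Phosphofructokinase held the largest log2 fold change among the 35 tested genes. The enzyme is a tetramer built from muscle-type (PFKM), liver-type (PFKL) and platelet-type (PFKP) subunits. PFKM (chr12:48105139-48146404, plus strand) was at 19.4, 20.7 and 18.0 FPKM in shCtr and at 11.5, 11.3 and 10.9 FPKM in shZNF148. The groups were far apart relative to their spread, with means of 19.4 ± 1.38 and 11.3 ± 0.282 FPKM, so the shZNF148 mean was 58.0% of the shCtr mean (log2 fold change -0.73, SE 0.08, adjusted p = 0.00955). This call was lost in 2 of the 6 fits that left out 1 library, at an adjusted p of 0.0673 without shCtr replicate 1 and of 0.0520 without shCtr replicate 3.

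PFKP carried most of the phosphofructokinase RNA and also fell (chr10:3066333-3137718, plus strand). It was at 297, 275 and 281 FPKM in shCtr and at 225, 210 and 240 FPKM in shZNF148 (log2 fold change -0.34, SE 0.07, adjusted p = 0.0309). Under scaling to the same sum its adjusted p was 0.0576. PFKL was at 84.8, 79.5 and 84.4 FPKM in shCtr and at 71.7, 80.6 and 68.8 FPKM in shZNF148. These groups overlapped and the difference did not pass (log2 fold change -0.17, adjusted p = 0.167). The 3 genes summed to 387 ± 13.5 FPKM in shCtr and to 310 ± 8.91 FPKM in shZNF148. PFKM made up 5.02% ± 0.449 of that sum in shCtr and 3.64% ± 0.182 in shZNF148, without overlap.

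The middle of the pathway showed no fall that passed. ALDOA, the main aldolase in these cells, was at 977 to 1034 FPKM in shCtr and at 903 to 1033 FPKM in shZNF148, with overlapping groups (log2 fold change -0.10, adjusted p = 0.396). ALDOC, a minor aldolase best known from brain (chr17:28573115-28576948, minus strand), rose instead. It was at 19.9, 17.5 and 16.8 FPKM in shCtr and at 22.8, 22.6 and 23.0 FPKM in shZNF148 (log2 fold change 0.33, SE 0.08, adjusted p = 0.0416). All 3 shZNF148 samples were higher, but this was among the least stable calls: with no filter its adjusted p was 0.0550, and it was lost in all 6 fits that left out 1 library.

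TPI1, which interconverts the pair of triose phosphates, was at 285 to 297 FPKM in shCtr and at 309 to 320 FPKM in shZNF148, a small shift that did not pass (log2 fold change 0.11, adjusted p = 0.208). PGK1, the first step that makes ATP, was at 618 to 668 FPKM and at 597 to 619 FPKM (log2 fold change -0.10, adjusted p = 0.293). PGAM1, phosphoglycerate mutase, was at 32.3 to 34.5 FPKM and at 35.7 to 44.5 FPKM (log2 fold change 0.20, adjusted p = 0.205). For PGAM1 the highest value came from shZNF148 replicate 1 alone.

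GAPDH oxidizes glyceraldehyde 3-phosphate and is also the gene to which the study scaled its RT-qPCR, so its own level is of interest. It was at 2101, 1991 and 2122 FPKM in shCtr and at 1797, 1926 and 1692 FPKM in shZNF148. Every shZNF148 sample was below every shCtr sample, at 87.1% of the shCtr mean, but the difference did not pass (log2 fold change -0.20, SE 0.07, 95% interval -0.38 to -0.02, adjusted p = 0.113). As a share of all FPKM it was 0.413% ± 0.0139 in shCtr and 0.378% ± 0.0170 in shZNF148. The listed RT-qPCR primers are printed to show where that assay reads the gene. Both lie in coding sequence of exon 8 of 9 of GAPDH, at chr12:6537608-6537627 and chr12:6537713-6537732 on GRCh38, and bound a product of 125 bases.

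GAPDH forward primer: acccagaagactgtggatgg
GAPDH reverse primer: ttcagctcagggatgacctt

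Scaling each sample to its GAPDH value, a choice made after the values were seen, moved the median log2 fold change of all rows to 0.18. Relative to GAPDH 2525 rows were higher and 359 lower. PFKM and NDRG1 still fell (log2 fold changes -0.55 and -0.31), and ALDOC, PFKFB3 and EGLN3 still rose. HK1, HK2, PFKP, ENO2 and LDHB no longer passed, at log2 fold changes of -0.28 to -0.14.

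At the lower end of the pathway ENO2 and LDHB fell. ENO1, the main enolase, had the highest level of all 17 enzymes, at 2668, 2386 and 2596 FPKM in shCtr and at 1980, 2352 and 1835 FPKM in shZNF148. No shZNF148 sample reached a shCtr value, yet shZNF148 replicate 2 came close and the difference did not pass (log2 fold change -0.32, SE 0.11, adjusted p = 0.0923). Without that replicate the adjusted p was 0.0275. ENO2, the neuron-type enolase (chr12:6913745-6923698, plus strand), fell from 136, 115 and 125 FPKM to 91.9, 94.2 and 94.3 FPKM (log2 fold change -0.41, SE 0.07, adjusted p = 0.0225). The ENO2 to ENO1 ratio was 0.0489 ± 0.00161 in shCtr and 0.0460 ± 0.00569 in shZNF148, and the groups overlapped.

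PKM, pyruvate kinase, was one of the few abundant enzymes with higher values in shZNF148. It was at 1036, 1007 and 1097 FPKM in shCtr and at 1276, 1306 and 1164 FPKM in shZNF148 (log2 fold change 0.25, SE 0.07, adjusted p = 0.0619). The groups did not overlap, and under scaling to the same sum the adjusted p was 0.0282. The row name PKM2 is the older symbol of the gene and does not tell the M1 and M2 splice forms apart.

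Lactate dehydrogenase is a tetramer of A subunits, which favour making lactate, and B subunits, which favour making pyruvate. LDHA was at 980, 868 and 1023 FPKM in shCtr and at 924, 936 and 1043 FPKM in shZNF148. The groups overlapped almost fully (log2 fold change 0.02, 95% interval -0.19 to 0.23, adjusted p = 0.911). LDHB was at 245, 250 and 234 FPKM in shCtr and at 182, 155 and 188 FPKM in shZNF148. All 3 shZNF148 samples were lower, with means of 243 ± 8.0 and 175 ± 17.5 FPKM (log2 fold change -0.47, SE 0.08, adjusted p = 0.0225). LDHB therefore supplied 20.3% ± 1.89 of the summed LDHA and LDHB FPKM in shCtr and 15.3% ± 1.11 in shZNF148, without overlap. LDHC, the testis form, was listed at 725 to 1048 FPKM, close to LDHA. How reads were divided between these neighbouring, similar genes cannot be told from the table, and LDHC was singled out after its values were seen.

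The proximal promoters of the lactate dehydrogenase pair are printed to show the HIF core motif in LDHA, a textbook HIF target, beside its partner. The difference in response between the pair is given by their ratio further on, in a test that groups of 3 are too small to pass. They come from RefSeq on GRCh38.p14, read 5′ to 3′ on the strand of the gene, and only the stretch outside annotated exons is shown. Capitals mark ACGTG or GCGTG on either strand, with CACGTG, which contains ACGTG, in capitals as a whole. The LDHA stretch is chr11:18394313-18394559 (plus strand, 247 bases) and the LDHB stretch chr12:21657972-21658092 (minus strand, 121 bases).

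LDHA promoter: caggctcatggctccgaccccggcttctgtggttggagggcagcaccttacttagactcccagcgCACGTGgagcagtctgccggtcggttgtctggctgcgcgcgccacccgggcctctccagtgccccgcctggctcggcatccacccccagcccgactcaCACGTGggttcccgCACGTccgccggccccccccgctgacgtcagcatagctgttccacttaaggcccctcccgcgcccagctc
LDHB promoter: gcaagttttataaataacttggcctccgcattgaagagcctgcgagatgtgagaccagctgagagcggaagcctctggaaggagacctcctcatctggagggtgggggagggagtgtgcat

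In the 250 bases upstream of each start, LDHA held 5 occurrences of ACGTG over both strands, where CACGTG, found 2 times, counts on each strand. LDHB held 0 of either core. Of the 36 genes, 33 had a RefSeq promoter. ACGTG or GCGTG was present in 58.8% of the 17 enzyme promoters, in 87.5% of the 8 HIF target promoters found and in 43.1% of all 27305 promoters of the same length. ACGTG alone was in 47.1% of the enzyme promoters and in 18.7% of all promoters. The G-rich word CCCTCCC, searched on both strands because ZNF148 is known to bind G-rich DNA, was in 51.5% of the 33 promoters and in 23.6% of all. A match is a word in a window, not a bound site. The set of all promoters was not matched to the 33 for GC content or for expression in these cells. No enrichment is read from these shares. Among genes that fell, 2 of the 6 promoters found held ACGTG or GCGTG, and among the 3 that rose, 2 did.

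**Figure D2:**
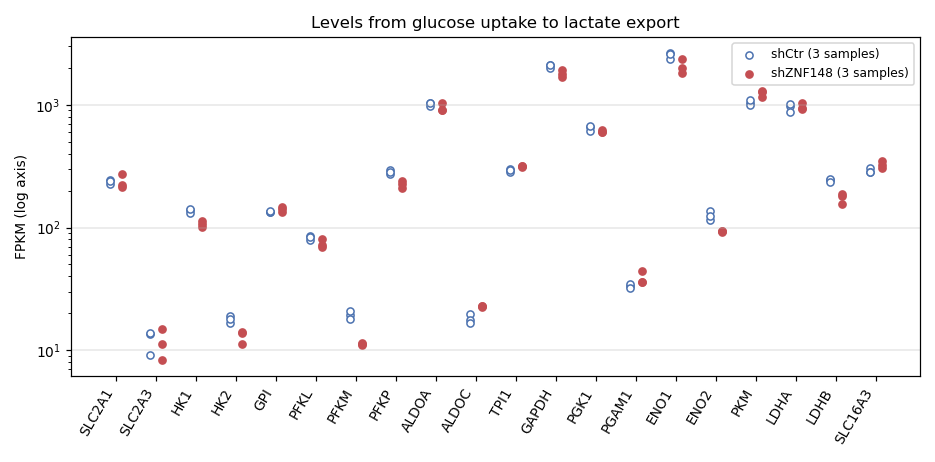
FPKM on a log axis for the transporters and enzymes in pathway order, 1 point per sample, open for shCtr and filled for shZNF148. Mean levels in shCtr span from 12.2 FPKM for SLC2A3 to 2550 FPKM for ENO1, with HK2, ALDOC and PFKM at 17.9, 18.0 and 19.4 FPKM. The groups are separate for PFKM, HK1, ENO2 and LDHB among others.

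As a group, 1 of the 17 enzymes rose and 6 fell, against 5.46% and 8.13% of all rows. Their median log2 fold change was -0.17, against 0.01 for all rows. The order of the enzymes by level, compared per length, was led by ENO1, GAPDH, PKM, ALDOA and LDHA, and of these 5 none passed the test. GAPDH, ENO1 and PKM had an unadjusted p under 0.05. The genes that passed held intermediate or low levels, from 17.9 FPKM for HK2 to 284 FPKM for PFKP in shCtr. All 17 together made up 1.93% ± 0.0784 of all FPKM in shCtr and 1.85% ± 0.0555 in shZNF148, with overlapping groups. Some of the enzymes, GAPDH, PGAM1, ENO1, LDHA and PGK1 among them, have processed pseudogenes of nearly the same sequence, and the assignment of reads between copies is uncertain.

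Of the 3 regulators of flux, PFKFB3 rose. PFKFB3 makes fructose 2,6-bisphosphate, the strongest activator of phosphofructokinase (chr10:6144934-6254644, plus strand). It was at 22.6, 24.4 and 22.8 FPKM in shCtr and at 31.7, 37.1 and 32.6 FPKM in shZNF148. Each shZNF148 sample was above each shCtr sample, with means of 23.3 ± 0.951 and 33.8 ± 2.91 FPKM (log2 fold change 0.52, SE 0.08, adjusted p = 0.0173). It was lost without shCtr replicate 1, at an adjusted p of 0.0899, without shCtr replicate 2, at 0.0529, and without shCtr replicate 3, at 0.0851. PFKFB4, a related enzyme, was at 31.7, 25.3 and 30.8 FPKM in shCtr and at 38.7, 46.1 and 35.7 FPKM in shZNF148. Its row is shared with UCN2, so the value cannot be given to either gene, and it did not pass (log2 fold change 0.44, adjusted p = 0.0592). PDK1, the kinase that turns pyruvate dehydrogenase off and a textbook HIF target, was at 22 to 25 FPKM and at 21.1 to 24.3 FPKM, with a log2 fold change of -0.02 (95% interval -0.22 to 0.18, adjusted p = 0.902).

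The promoters of PFKFB3 and ALDOC, which rose and had a HIF core motif, are printed in the same way. HK2 and ENO2 also had a core motif and fell, and EGLN3 lacked both cores and rose. A link between motif and response was not tested. The PFKFB3 stretch is chr10:6144671-6144920 (plus strand, 250 bases) and the ALDOC stretch chr17:28576949-28577145 (minus strand, 197 bases).

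PFKFB3 promoter: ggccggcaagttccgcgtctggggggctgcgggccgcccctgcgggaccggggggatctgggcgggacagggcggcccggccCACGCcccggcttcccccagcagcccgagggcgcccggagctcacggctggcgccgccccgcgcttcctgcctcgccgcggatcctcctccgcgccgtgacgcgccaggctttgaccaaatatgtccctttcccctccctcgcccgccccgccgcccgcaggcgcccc
ALDOC promoter: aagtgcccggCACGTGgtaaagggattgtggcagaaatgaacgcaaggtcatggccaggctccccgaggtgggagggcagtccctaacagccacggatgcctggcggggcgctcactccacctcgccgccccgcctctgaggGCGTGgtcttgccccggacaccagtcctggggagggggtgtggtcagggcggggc

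Within the HIF pathway the sensor EGLN3 rose while HIF1A did not. EGLN3 is a prolyl hydroxylase that is itself induced by HIF (chr14:33924227-34462774, minus strand). It was at 6.99, 7.52 and 7.36 FPKM in shCtr and at 8.63, 10.7 and 10.2 FPKM in shZNF148 (log2 fold change 0.38, SE 0.10, adjusted p = 0.0458). The groups did not overlap, but the call was lost in all 6 fits that left out 1 library and, with no filter on low rows, at an adjusted p of 0.0718. EGLN1, the main oxygen sensor of normoxic cells, was at 9.62 to 10.4 FPKM and at 10.3 to 11.9 FPKM (log2 fold change 0.12, adjusted p = 0.353). HIF1A was at 120, 118 and 114 FPKM in shCtr and at 98.1, 116 and 86.7 FPKM in shZNF148. The groups overlapped through shZNF148 replicate 2 (log2 fold change -0.23, SE 0.11, adjusted p = 0.182), and without that replicate the adjusted p was 0.0317. HIF1A activity is set largely at the level of protein, which was not measured here.

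Of the 9 tested HIF targets outside glycolysis, 0 rose and 1 fell in limma, against 5.46% and 8.13% of all rows, so the count is near the background. At an unadjusted p under 0.05 there were 2 higher and 2 lower. The share of all rows at that unadjusted p was not counted, so nothing is read from that count. The median log2 fold change of the 9 targets was 0.19, with 5 above 0 and 4 below. This median ranged from 0.07 to 0.38 over the settings tried. NDRG1, a stress-response gene induced by hypoxia (chr8:133237175-133302022, minus strand), was the one that fell. It was at 375, 343 and 341 FPKM in shCtr and at 229, 288 and 230 FPKM in shZNF148, with no overlap (log2 fold change -0.51, SE 0.10, adjusted p = 0.0301). shZNF148 replicate 2 was the highest of its group. The call was lost in 5 of the 6 fits that left out 1 library, at an adjusted p of up to 0.120.

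P4HA1 and P4HA2, the catalytic subunits of collagen prolyl 4-hydroxylase, were higher in every shZNF148 sample but did not pass. P4HA1 was at 144, 131 and 142 FPKM in shCtr and at 168, 224 and 172 FPKM in shZNF148 (log2 fold change 0.42, adjusted p = 0.0605). P4HA2 was at 72.7, 69.4 and 71.1 FPKM and at 85.2, 114 and 82.3 FPKM (log2 fold change 0.38, adjusted p = 0.0858). In both genes shZNF148 replicate 2 stood above the other two. Without it the log2 fold changes were smaller, 0.29 and 0.23, and both adjusted p values were 0.0356. Under scaling to the same sum both passed as well, at 0.0325 and 0.0423. The P4HA2 to P4HA1 ratio was 0.511 ± 0.0169 in shCtr and 0.498 ± 0.0166 in shZNF148, with overlapping groups.

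The mitophagy receptors BNIP3 and BNIP3L did not pass. BNIP3 was at 88.0 to 108 FPKM and at 88.5 to 96.0 FPKM, with overlapping groups (log2 fold change -0.11, adjusted p = 0.422). BNIP3L was at 59.1 to 64.2 FPKM and at 50.6 to 57.2 FPKM, lower in every shZNF148 sample (log2 fold change -0.20, adjusted p = 0.0958). ADM, a vasodilator peptide, was at 44.3 to 47.5 FPKM and at 39.1 to 54.5 FPKM, and its log2 fold change of -0.05 lay within the spread (adjusted p = 0.798).

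Among the rest, KDM3A, a histone H3 lysine 9 demethylase, was at 27.6 to 34.7 FPKM and at 34.4 to 36.6 FPKM (log2 fold change 0.19, adjusted p = 0.199). ANKRD37 was near the limit of the table, at 1.35 to 2.33 FPKM and at 2.26 to 3.76 FPKM (log2 fold change 0.44, adjusted p = 0.165). CA12, a membrane carbonic anhydrase that handles acid outside the cell, was at 5.38, 5.95 and 4.82 FPKM and at 5.97, 10.1 and 5.63 FPKM. Its log2 fold change was 0.33 with all samples and 0.09 without shZNF148 replicate 2, and it did not pass (adjusted p = 0.297).

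CA9, the carbonic anhydrase most often used as a marker of hypoxia, was nearly silent. It was listed at 0.249, 0.381 and 0.0789 FPKM in shCtr and at 1.54, 0 and 1.44 FPKM in shZNF148. Its mean was under the filter, so it was not tested. The 0 of shZNF148 replicate 2 may not mean absence, because 141 rows of the table went from over 10 FPKM in some sample to 0 in some other.

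Set side by side, the enzymes and the HIF targets differed in their counts and not by a test. Of the enzymes 6 of 17 fell and 1 rose, at a median of -0.17, and of the HIF targets 1 of 9 fell and 0 rose, at a median of 0.19. Over all tested rows 8.13% fell and 5.46% rose. Within each sample the median log2 difference of the enzymes from the shCtr mean was 0.03, -0.05 and 0.02 in shCtr. In shZNF148 it was -0.20, -0.07 and -0.25, so shZNF148 replicate 2 lay close to shCtr replicate 2. For the HIF targets it was 0.04, -0.07 and 0.03 in shCtr and 0.13, 0.13 and 0.21 in shZNF148. These medians are descriptions of lists chosen with earlier results known. Relative to GAPDH, itself 1 of the 17 enzymes, the medians were 0.03 for the enzymes and 0.38 for the HIF targets, against 0.18 for all rows. Under quantile normalization the enzyme and HIF target medians were -0.038 and 0.21. The 37 further HIF targets described below had a median of 0.02, with 3 that rose and 8 that fell, so they do not share the higher median. Both lists hold genes that HIF is known to induce, and within the enzymes HK2, ENO2 and PFKP fell while LDHA, PGK1 and ALDOA did not pass.

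Comparison within gene pairs does not depend on how samples were scaled to each other. For 9 pairs, chosen after the values were seen, the ratio of FPKM was compared between groups by a two-sided exact permutation test, for which 0.1 is the smallest p that groups of 3 allow. In 4 pairs the groups did not overlap (p = 0.1 in each by the exact test, 0.225 after adjustment over the 9). PFKM to PFKP went from 0.0683 ± 0.00628 to 0.0502 ± 0.00421, and LDHB to LDHA from 0.255 ± 0.0299 to 0.181 ± 0.0155. ALDOC to ALDOA went from 0.0178 ± 0.00147 to 0.0242 ± 0.00193, and EGLN3 to EGLN1 from 0.735 ± 0.0409 to 0.907 ± 0.113. For HK2 to HK1, PFKL to PFKP, ENO2 to ENO1, P4HA2 to P4HA1 and BNIP3L to BNIP3 the groups overlapped.

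**Figure D3:**
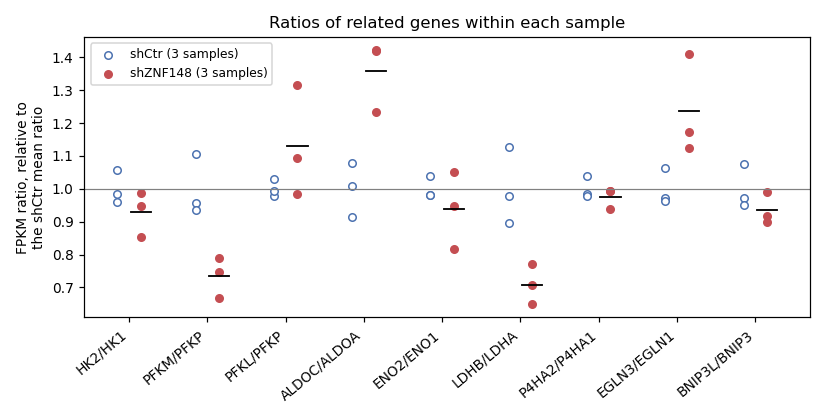
Ratio of FPKM of 2 related genes within each sample, divided by the mean ratio of the 3 shCtr samples, with open points for shCtr, filled points for shZNF148 and a bar at the shZNF148 mean. The 3 shZNF148 samples lie below all shCtr samples for PFKM/PFKP and LDHB/LDHA and above them for ALDOC/ALDOA and EGLN3/EGLN1.

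Further genes of the same pathways were taken from lists of textbook members. Of 32 tested genes of glycolysis and pyruvate use beyond the 36, 2 rose and 3 fell, near the 5.46% and 8.13% of all rows. HKDC1, a hexokinase-domain gene next to HK1 on chromosome 10, fell from 6.69, 7.5 and 6.28 FPKM to 2.03, 1.73 and 2.53 FPKM (log2 fold change -1.34, adjusted p = 0.00831). FBP1, which runs the phosphofructokinase step backwards in gluconeogenesis, fell from 20.0, 18.7 and 22.5 FPKM to 11.4, 4.21 and 9.18 FPKM (log2 fold change -1.3, adjusted p = 0.0402). SLC2A8, a glucose transporter of internal membranes, rose from 4.69, 5.30 and 3.89 FPKM to 12.6, 18 and 9.13 FPKM (log2 fold change 1.3, adjusted p = 0.0218). In all 3 genes the groups were separate. Smaller changes passed for PGAM2, the muscle form of the mutase (log2 fold change 0.50, adjusted p = 0.0390), and for PDP1, which reactivates pyruvate dehydrogenase (log2 fold change -0.41, adjusted p = 0.0459). SLC16A1, a lactate transporter singled out after its values were seen, was listed at 0 in 5 samples and at 108 FPKM in shCtr replicate 2, and no change is read from it.

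In the pentose phosphate pathway, which branches from glucose 6-phosphate, 0 of 8 tested genes rose and 1 fell. Over all tested rows 5.46% rose and 8.13% fell, so these counts are near the background. The one that fell was TALDO1, transaldolase, which was between 181 and 187 FPKM in shCtr and between 131 and 158 FPKM in shZNF148 (log2 fold change -0.32, adjusted p = 0.0468). RPIA (adjusted p = 0.199), TKT (0.358) and RPE (0.379) did not pass. Of 4 tested glucose-sensing genes 1 rose and 0 fell, against the same 5.46% and 8.13% of all rows. The one that rose was MLX, the partner of the glucose-responsive factors MLXIP and MLXIPL (log2 fold change 0.32, adjusted p = 0.0219). MLXIP (0.216), ARRDC4 (0.956) and TXNIP (0.973) did not pass.

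Among 14 further tested HIF pathway genes 1 rose and 2 fell, again beside 5.46% and 8.13% of all rows. EPAS1, which encodes the alternative alpha subunit HIF2A, fell from 14.3, 15.4 and 12.2 FPKM to 7.84, 7.70 and 7.74 FPKM (log2 fold change -0.77, adjusted p = 0.0111). The shZNF148 samples were nearly identical and well below the shCtr samples. ARNT2, a relative of ARNT, fell as well (log2 fold change -0.54, adjusted p = 0.0316). EGLN2 was higher (log2 fold change 0.33, adjusted p = 0.0441), but its row is shared with MIA, RAB4B and 2 readthrough genes and cannot be assigned. CITED2, a HIF-induced competitor for the coactivator p300, was at 35 to 38.1 FPKM and at 53.3 to 110 FPKM and did not pass (log2 fold change 0.93, adjusted p = 0.0561). CREBBP was close behind (log2 fold change 0.40, adjusted p = 0.0581).

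Of 37 further tested HIF targets 3 rose and 8 fell, against the same 5.46% and 8.13% of all rows. HMOX1, haem oxygenase, rose (log2 fold change 0.91, adjusted p = 0.0172), as did AK4, a mitochondrial adenylate kinase (log2 fold change 0.63, adjusted p = 0.0185). TMEM45A also rose (log2 fold change 0.50, adjusted p = 0.0355). PNRC1 (-0.85), MXI1 (-0.78), BHLHE40 (-0.74) and PLOD2 (-0.72) were among those that fell past 1.5-fold on the same scale, with adjusted p between 0.0111 and 0.0254. MXI1 antagonizes MYC at E-boxes, BHLHE40 is a transcriptional repressor and PLOD2 hydroxylates lysines of collagen. VLDLR (-0.58), MAFF (-0.46) and LOXL2 (-0.45) fell by less. The most familiar target, VEGFA, was at 115 to 147 FPKM and at 93.3 to 109 FPKM and did not pass (log2 fold change -0.32, adjusted p = 0.0946). ANGPTL4, singled out after its values were seen, was at 1.98, 2.01 and 1.61 FPKM and at 6.95, 33.1 and 5.24 FPKM, and with that spread it did not pass (log2 fold change 2.06, adjusted p = 0.0645). The median log2 fold change of these 37 genes was 0.02.

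**Figure D4:**
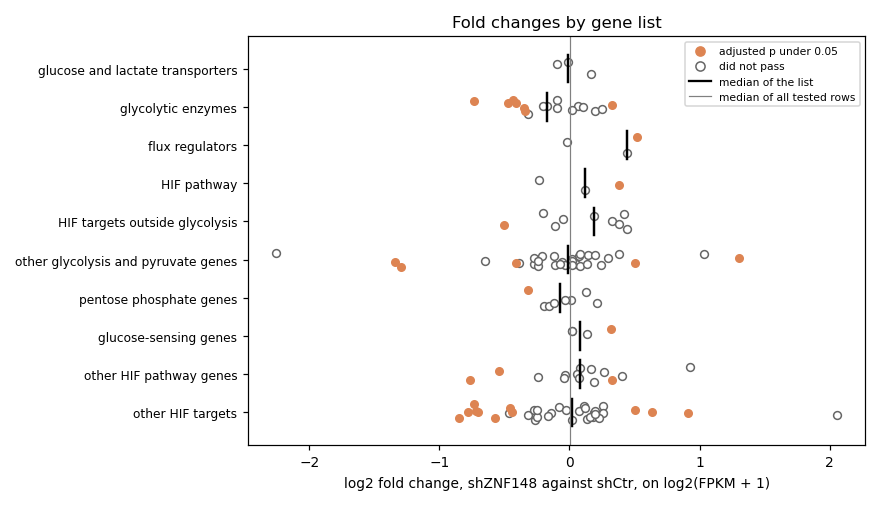
Log2 fold change of each tested gene, shZNF148 against shCtr on log2(FPKM + 1), by list, filled where the adjusted p was under 0.05, with a bar at the list's median and a thin line at the median of all tested rows. The enzyme median sits at -0.17, the HIF target median at 0.19 and the medians of the longer lists close to 0.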

How the data were processed

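Total RNA of 3 shCtr and 3 shZNF148 samples of MDA-MB-231 was sequenced. The values used are FPKM, deposited by the authors in 1 table with a column for each sample and 0 columns unused. Per the labels, the processing notes name bcl2fastq 2.17.1.14, TopHat2 2.0.14, Cufflinks 2.2.1 and Cuffnorm 2.2.1 with the builds hg18 and hg19, whereas the methods of the study name Salmon on GRCh38 and DESeq2. Which of these made the table is not given in the sources used here. FPKM divides reads by length and depth, so no count test was run, and read numbers are unknown. Relative depth was read from the steps between low values.

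The 11777 of 24108 rows that averaged 1 FPKM or more were taken as log2(FPKM + 1) and fitted in limma 3.58.1 (R 4.3.3). Condition was the single covariate, eBayes used a trend, and p was adjusted by Benjamini and Hochberg over every tested row. A fold change on this scale understates the change of low genes. The row with the highest mean stood for a symbol with several rows. Calls needed an adjusted p under 0.05 and, where stated, more than 1.5-fold. The fit was tested on simulated data.

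The genes and lists were chosen with earlier results of these data known. All 36 genes and ZNF148 are named, and of each further list every row past 1.5-fold, otherwise the 5 with the smallest adjusted p. A few genes this covers are not reported here but stay in the counts. Gene positions came from GENCODE release 44 and promoters from RefSeq (GRCh38.p14), not from the deposited table. Within-sample ratios and scaling to GAPDH were added after the values were seen. Ratios used Python 3.11.15 with numpy 2.4.6 and pandas 2.3.3. Alternatives covered the filter, the pseudocount, the scaling, the variance model, the replicate number as a block, joined rows and leaving out each library. The replicate numbers gave no sign of pairing between the samples.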

Additional observations from a re-analysis of the deposited data

How the results depend on the processing

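The direction of the 10 genes that passed was kept in all 18 alternatives, while calls and sizes moved, for which the cause was not tested. Only rescaling could have reversed a direction. The groups of these genes did not overlap, and the other alternatives keep the order of the samples. Relative to GAPDH the log2 fold changes of HK1, PFKP, ENO2 and LDHB were -0.15, -0.14, -0.21 and -0.28. With no filter rows passing were 401 higher, and members 1 higher. At a pseudocount of 5 FPKM 76 rows were higher and 204 lower past 1.5-fold. Scaling to the same sum gave 1200 rows higher, 390 past 1.5-fold, and 7 members higher. Quantile normalization gave 6 members higher, and leaving out rows listed at 0 gave 5. Scaling to GAPDH gave 2525 rows higher and 359 lower (704 and 203 past 1.5-fold), with 10 members higher and 2 lower.

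Blocking on the replicate number left calls as follows: 130 rows were higher and 271 lower (99 and 216 past 1.5-fold), with 1 member higher and 1 lower, PFKFB3 (adjusted p = 0.0452) and PFKM (0.0415). Deviations of same-numbered samples correlated at 0.001, -0.09 and 0.03, so the numbers gave no sign of pairing.

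Leaving out 1 library gave 3 to 628 rows higher and 19 to 1092 lower, 3 to 209 and 19 to 393 past 1.5-fold, and 0 to 3 members higher and 0 to 10 lower. ZNF148 kept log2 fold changes of -1.74 to -1.45 but had adjusted p of 0.0673 and 0.0653 without shCtr replicates 1 and 3. With 2 samples left, a group leans on the spread of all rows.

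The enzyme median was -0.038 under quantile normalization and 0.027 relative to GAPDH, and -0.24 to -0.12 without 1 library. The HIF target median was 0.26 with no filter and 0.069 at a mean of at least 5 FPKM. It was 0.26 under scaling to the same sum, 0.38 relative to GAPDH and 0.095 to 0.26 without 1 library. The median of all rows was 0.073 under scaling to the same sum and 0.18 relative to GAPDH.

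Log2 fold changes that changed sign belonged to genes that did not pass with all samples and the primary scaling. Scaling to the same sum gave 0.056 for SLC2A1, 0.051 for PDK1 and 0.017 for ADM. Quantile normalization gave 0.082 for SLC2A1 and 0.060 for PGK1. Relative to GAPDH the values were 0.19 for SLC2A1, 0.089 for SLC2A3, 0.027 for PFKL, 0.10 for ALDOA, 0.10 for PGK1, 0.17 for PDK1, 0.088 for BNIP3 and 0.14 for ADM. Without 1 library the lowest and highest values were -0.12 and 0.052 for SLC2A1, -0.29 and 0.10 for SLC2A3, -0.052 and 0.067 for LDHA, -0.060 and 0.039 for PDK1 and -0.19 and 0.041 for ADM. The read number behind each value is unknown, so the precision of genes near 1 FPKM cannot be given.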
